A study of Arabidopsis thaliana with 9 samples.

Results

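Arabidopsis thaliana takes up zinc through membrane proteins of the ZIP family. The 9 genes described here are 7 of these transporter genes, ZIP1 (AT3G12750), ZIP3 (AT2G32270), ZIP4 (AT1G10970), ZIP5 (AT1G05300), ZIP9 (AT4G33020), ZIP12 (AT5G62160) and IRT3 (AT1G60960), with the transcription factor genes bZIP19 (AT4G35040) and bZIP23 (AT2G16770). They are 9 of 32678 gene rows. The transporters were chosen by their lower level in icpk seedlings than in wild type under nitrate, so that difference and every other icpk value of the 9 genes is given below as a description, with no test.

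Whole 7-day-old seedlings were grown at 23 °C in constant light on medium with 2.5 mM ammonium succinate as the nitrogen source, 1 µM ZnCl2 and 0.1 mM FeSO4-EDTA, and then received 10 mM of a salt for 15 min. The 3 groups, of 3 libraries each from about 10 pooled seedlings, were wild type with KCl, wild type with KNO3 and the icpk mutant with KNO3. Per the labels, icpk is mutated in 3 genes of calcium-dependent protein kinases (CPK10, CPK30, CPK32), is called inducible, and expresses CPK10(M141G). The protocols describe a 2 min pretreatment with 10 µM of the inhibitor 3MBiP to block that kinase form, and the labels do not say which libraries received it. An icpk group with KCl was not analysed here, so every difference between icpk and wild type holds genotype and any inhibitor effect together, and these cannot be told apart. The labels do not state that replicate libraries stem from different cultures, so p-values measure the spread between these libraries, which may be technical.

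The libraries held 5987352 to 19564785 counts on genes. Wild type KCl replicate 3 was the shallowest. Of its records, 84.3% were assigned to no gene row, against 26.7% to 61.4% in the other libraries. Most of these were alignments that were not unique, which made up 80.5% of the records of that replicate. CPM are counts per 1000000 of the normalised library size. CPK30 was 27.54 ± 1.107 CPM (mean ± SD over 3 libraries) with KNO3 in wild type and 3.39 ± 0.4844 CPM in icpk. CPK32 was 206.1 ± 6.86 and 21.34 ± 3.338 CPM in the same order. CPK10, which the transgene also supplies, was 90.12 ± 9.795 CPM in wild type and 159.7 ± 9.519 CPM in icpk.

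ZIP proteins move zinc and other divalent metals into the cytosol, from outside the cell or from compartments. In Arabidopsis, bZIP19 and bZIP23 are zinc sensors that act redundantly. When zinc is scarce they bind a palindromic zinc deficiency response element (ZDRE) in the promoters of many ZIP genes and switch them on; when zinc is ample, zinc bound to the factors keeps them inactive. The sensing acts on the proteins themselves.

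The 8-base core of the ZDRE, TGTCGACA, reads the same on both strands. It is shown with its surroundings because it is the feature that ties these transporters to the regulators. In the window from 1500 bases before to 100 bases after the annotated gene start, 5 of the 7 transporter genes held the core, at 7 sites, against 472 of 27444 protein-coding genes (1.72%). The element is known from promoters of ZIP genes, so motif and gene set are not independent. Each line gives the gene's strand, 5′ to 3′, with the core in capitals and 10 bases on each side, from RefSeq's TAIR10.1 assembly.
ZIP3: gtacattttaTGTCGACAttctttcgcc
ZIP4 site 1: aacgcgaaaaTGTCGACAtatttggcta
ZIP4 site 2: gtccatagaaTGTCGACActctttcact
ZIP5: gtacaatttaTGTCGACAttctctcgac
ZIP12: ttaccgtgcaTGTCGACAttactcccaa
IRT3 site 1: tacaacaaaaTGTCGACAtttagttggc
IRT3 site 2: ttcctcacgaTGTCGACAttacttgtat

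The ZIP3 core lies at chr2:13702713-13702720, between genes, with its first base 1355 bases before the gene start. The ZIP4 cores lie at chr1:3667171-3667178, 39 bases before the start and between genes, and at chr1:3667043-3667050, in an exon of the 5′ UTR. The ZIP5 core lies at chr1:1548673-1548680, between genes and 831 bases before the start, and the ZIP12 core at chr5:24959941-24959948, between genes and 166 bases before it. The IRT3 cores lie at chr1:22447316-22447323, 24 bases before the start and between genes, and at chr1:22447218-22447225, in an exon of the 5′ UTR. ZIP4 and IRT3 thus each carry one core just before and one just after the annotated start. ZIP3 and ZIP12 lie on the plus strand, and ZIP4, ZIP5 and IRT3 on the minus strand.

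ZIP1, ZIP9, bZIP19 and bZIP23 held no exact core in this window. The 7-base core TGTCGAC, searched on both strands and contained in the longer one, was found in the same number of transporter promoters, 5 of 7, and in 6.51% of all promoters. In the 500 bases before the start alone, a window chosen after the sites were seen, 3 of 7 transporters and 0.503% of all promoters held the 8-base core. A match in letters is a description of the window and not a measured binding site.

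**Figure D1:**
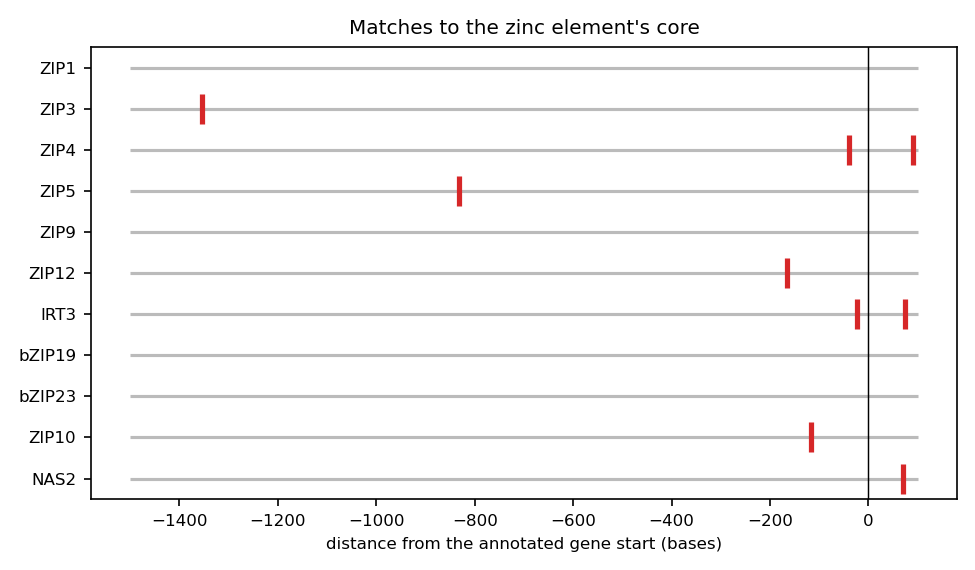
Positions of the 8-base ZDRE core relative to the annotated gene start, in bases, for the 9 genes and for ZIP10 and NAS2. Grey lines are the searched window and red marks are cores; ZIP4 and IRT3 have a mark on each side of the start, and ZIP1, ZIP9, bZIP19 and bZIP23 have none.

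All 7 transporter transcripts were lower in icpk than in wild type under nitrate, and no icpk library reached any wild type KNO3 library for any of them. The same non-overlap downwards held for 19.8% of the 20288 genes tested; since the genes were chosen on this contrast, nothing is read from the count. The median log2 difference of the 7 was -1.07, beside 0.01 for all tested genes. The single differences ran from -0.38 for IRT3 to -4.51 for ZIP12. Levels below are CPM on normalised library sizes, and differences are log2 of fitted group means ± SE.

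ZIP9, a zinc-responsive transporter, had 78.15, 97.22 and 107.2 CPM in wild type with KCl (replicates 1, 2 and 3), 54.26, 69.83 and 76.23 CPM with KNO3, and 7.387, 4.443 and 10.59 CPM in icpk. The highest icpk library lay far below the lowest wild type library. The icpk mean was 11.2% of the wild type KNO3 mean, a log2 difference of -3.18 ± 0.26.

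ZIP12, the least abundant of the 7, had 95, 77 and 46 counts in wild type with KCl, 62, 36 and 31 counts with KNO3, and 0, 3 and 2 counts in icpk. In CPM these were 6.063 ± 2.067, 2.705 ± 1.126 and 0.09902 ± 0.08635 (SD, n = 3). The pooled count fell from 129 in wild type with KNO3 to 5 in icpk, a ratio of 4.15% after scaling for depth. At 0 to 3 counts per library, the icpk level of ZIP12 is close to the detection limit of these libraries.

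ZIP4, a transporter induced by zinc shortage in roots and shoots, had 166.5, 186.2 and 206.4 CPM in wild type with KCl, 144.3, 132.8 and 185.8 CPM with KNO3, and 54.32, 43.32 and 60.12 CPM in icpk. The 6 wild type libraries spanned a common range, and the 3 icpk libraries formed a separate lower one. The icpk mean was 34.1% of wild type with KNO3, a log2 difference of -1.55 ± 0.16.

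ZIP3, which restored zinc uptake when expressed in yeast, had 93.46, 62.1 and 79.36 CPM in wild type with KCl, 77.58, 77.29 and 97.86 CPM with KNO3, and 38.85, 45.22 and 35.84 CPM in icpk. ZIP5 had 105.8, 102.6 and 114 CPM, then 101, 76.77 and 129.6 CPM, then 48.32, 36.55 and 64.14 CPM in the same order. The icpk mean was 47.4% of the wild type KNO3 mean for ZIP3 and 48.5% for ZIP5, with log2 differences of -1.07 ± 0.16 and -1.05 ± 0.21. For both, the wild type KCl and KNO3 libraries overlapped.

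ZIP1, reported as a vacuolar zinc transporter of the root stele, had 38.78, 42.47 and 44.72 CPM in wild type with KCl, 30.04, 34.03 and 36.67 CPM with KNO3, and 20.51, 23.27 and 24.63 CPM in icpk. Its 3 groups did not overlap and stood in that order. The icpk mean was 67.9% of wild type with KNO3, a log2 difference of -0.56 ± 0.11.

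IRT3, a plasma membrane zinc and iron transporter, had 332.4, 329.6 and 335 CPM in wild type with KCl, 256.3, 262.9 and 301.4 CPM with KNO3, and 195, 195.7 and 239.9 CPM in icpk. Its 3 groups also stood apart in that order. IRT3 had the smallest relative difference of the 7 between icpk and wild type with KNO3, with an icpk mean of 76.8% (log2 difference -0.38 ± 0.12).

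**Figure D2:**
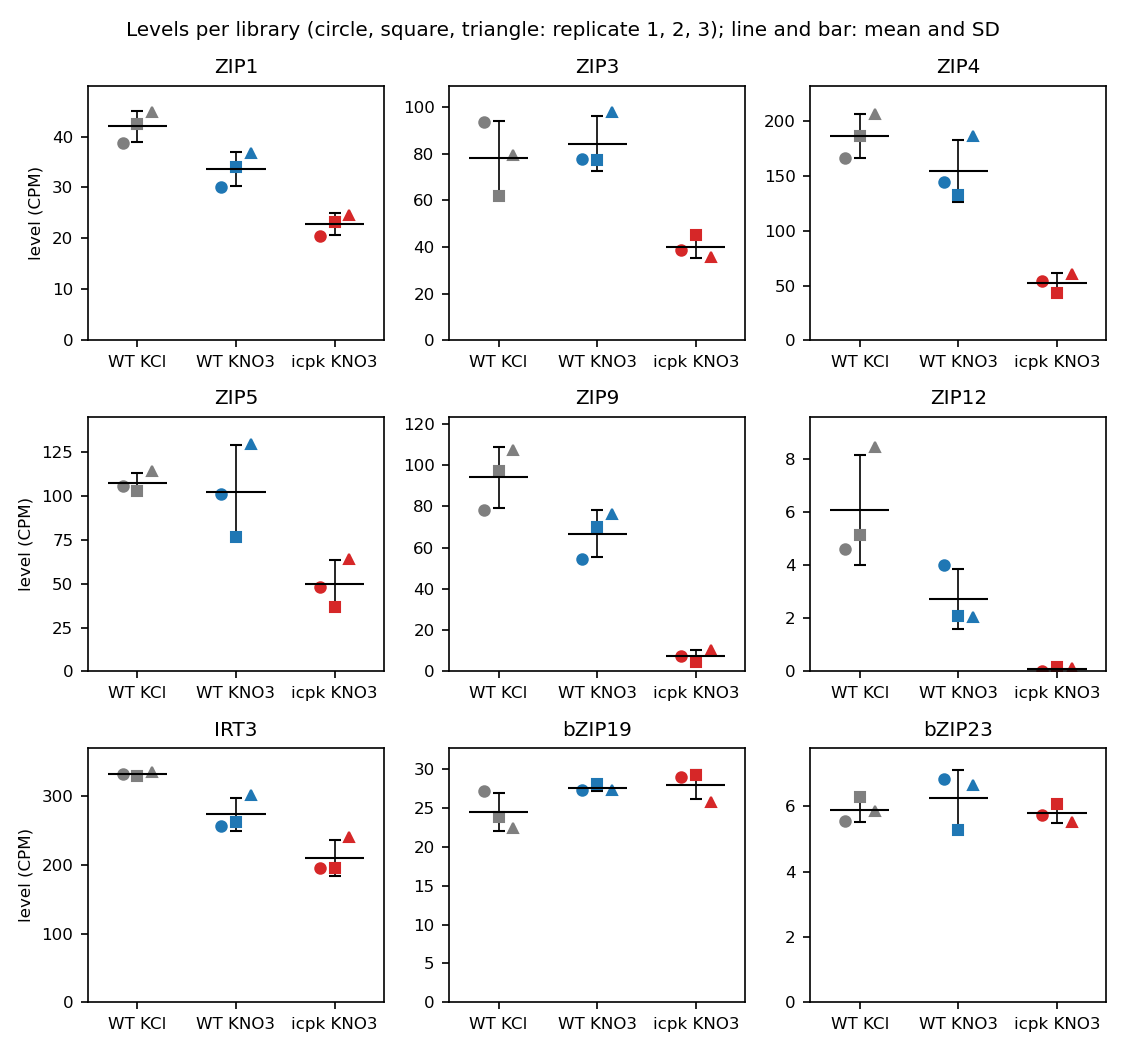
Level of each of the 9 genes in CPM in every library, by group, on axes that start at 0. Lines and bars are mean and SD of 3 libraries; in icpk all 7 transporters sit below every wild type KNO3 library, while bZIP19 (25.81 to 29.2 CPM) and bZIP23 (5.535 to 6.083 CPM) sit within or next to the wild type range.

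The transcripts of the regulators lay within or next to the wild type range in icpk. bZIP19 had 27.17, 23.77 and 22.36 CPM in wild type with KCl, 27.32, 28 and 27.24 CPM with KNO3, and 28.94, 29.2 and 25.81 CPM in icpk. The icpk mean was 102% of wild type with KNO3, with overlapping libraries and a log2 difference of 0.02 ± 0.10. bZIP23 had 5.54, 6.276 and 5.865 CPM, then 6.847, 5.279 and 6.66 CPM, then 5.736, 6.083 and 5.535 CPM. Its icpk mean was 92.4% of wild type with KNO3, again with overlapping libraries, and its log2 difference was -0.11 ± 0.15. Transcript levels say nothing of the zinc bound to these proteins, which was not measured.

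Against wild type with KCl, icpk with KNO3 differs in both genotype and salt. All 7 transporters were again lower with no overlap, which held for 13.6% of tested genes. The icpk means were 7.93% of the KCl mean for ZIP9, 28.2% for ZIP4, 46.2% for ZIP5, 51% for ZIP3, 54.3% for ZIP1 and 63.2% for IRT3. For ZIP12 the pooled count ratio was 2.1%. This comparison uses the same 3 icpk libraries as the one above and is no second measurement of them.

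Per length of exon, the order of the transporters differed between groups. In wild type with KNO3, IRT3 was highest at 142.8 ± 12.71 CPM per kilobase of exon (SD, n = 3), followed by ZIP4 at 93.69 ± 16.94, ZIP3 at 54.49 ± 7.63, ZIP5 at 47.03 ± 12.14, ZIP9 at 44.43 ± 7.519, ZIP1 at 23.78 ± 2.364 and ZIP12 at 1.621 ± 0.6745. Between ZIP3, ZIP5 and ZIP9 the neighbouring means differed by less than their SDs. In icpk, IRT3 stood at 109.7 ± 13.42, ZIP4 at 31.93 ± 5.182, ZIP3 at 25.85 ± 3.1, ZIP5 at 22.8 ± 6.356, ZIP1 at 16.15 ± 1.487, ZIP9 at 4.971 ± 2.044 and ZIP12 at 0.05933 ± 0.05174 CPM per kilobase. There ZIP3 and ZIP5 differed by less than their SDs, and ZIP9 stood below ZIP1 rather than above it. The regulators were lower than most transporters, at 11.58 for bZIP19 and 3.978 for bZIP23 in wild type with KNO3.

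The summed level of the 7 transporters was 819.7, 825.2 and 895.2 CPM in wild type with KCl, 667.4, 655.6 and 829.6 CPM with KNO3, and 364.4, 348.6 and 435.3 CPM in icpk. The icpk libraries were all below the wild type ones, and the mean icpk sum was 53.3% of wild type with KNO3. IRT3 made up 38.3% ± 1.89 (SD, n = 3) of the summed level in KNO3-treated wild type and 54.9% ± 1.31 in icpk. The share of ZIP4 was 21.4% ± 1.09 and 13.7% ± 1.24, and that of ZIP9 was 9.32% ± 1.27 and 1.91% ± 0.587.

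The effect of nitrate in wild type is a contrast that did not choose the genes, although it shares the 3 wild type KNO3 libraries with the one that did. With edgeR's quasi-likelihood test and Benjamini-Hochberg adjustment over 20288 genes, 0 of 7 transporters and 0 of 2 regulators passed an adjusted p of 0.05, where 3.56% of tested genes were called higher and 2.39% lower. At an unadjusted p below 0.05 there were 3, ZIP1, ZIP12 and IRT3, all lower with KNO3, and DESeq2 called 1, ZIP12. In 4 of the 7 (ZIP1, ZIP9, ZIP12 and IRT3) every KNO3 library was below every KCl library, which held for 14.1% of tested genes. The median log2 difference of the 7 was -0.28, beside -0.02 for all tested genes.

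ZIP12 had the largest nitrate difference of the 7, with a log2 value of -1.10 ± 0.34 (unadjusted p 0.00805, adjusted p 0.0873 by edgeR). DESeq2 gave -1.11 with an adjusted p of 0.0348, and the authors' deposited table gives -0.87 with an adjusted p of 0.0348 for ZIP12. The pooled ZIP12 count with KNO3 was 50.5% of that with KCl (95% exact interval 40.3% to 63%). This interval covers counting error only and leaves out the spread between libraries. Its KCl mean leans on replicate 3, the shallowest library, at 8.431 CPM beside 4.617 and 5.141 CPM, and without that library the log2 difference was -0.84 (adjusted p 0.205 by edgeR).

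ZIP1 was 41.99 ± 2.998 CPM with KCl and 33.58 ± 3.338 CPM with KNO3 (SD, n = 3), a log2 difference of -0.32 ± 0.11 (adjusted p 0.119 by edgeR). IRT3 was 332.3 ± 2.736 and 273.5 ± 24.35 CPM, a difference of -0.28 ± 0.12 (adjusted p 0.19 by edgeR). ZIP9 was 94.2 ± 14.77 and 66.77 ± 11.3 CPM, a difference of -0.49 ± 0.23 (adjusted p 0.249 by edgeR). These values are lower with KNO3 in every library but did not pass the threshold.

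ZIP4 had a log2 nitrate difference of -0.27 ± 0.16 (adjusted p 0.357 by edgeR), with overlapping libraries. ZIP5 was at -0.07 ± 0.21 and ZIP3 at 0.10 ± 0.16 (adjusted p 0.902 and 0.768 by edgeR). bZIP19 was at 0.16 ± 0.10 and bZIP23 at 0.09 ± 0.15 (adjusted p 0.394 and 0.801 by edgeR). For ZIP3 and ZIP5 the nitrate difference was smaller than its SE, while their icpk difference was about -1 on the log2 scale.

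**Figure D3:**
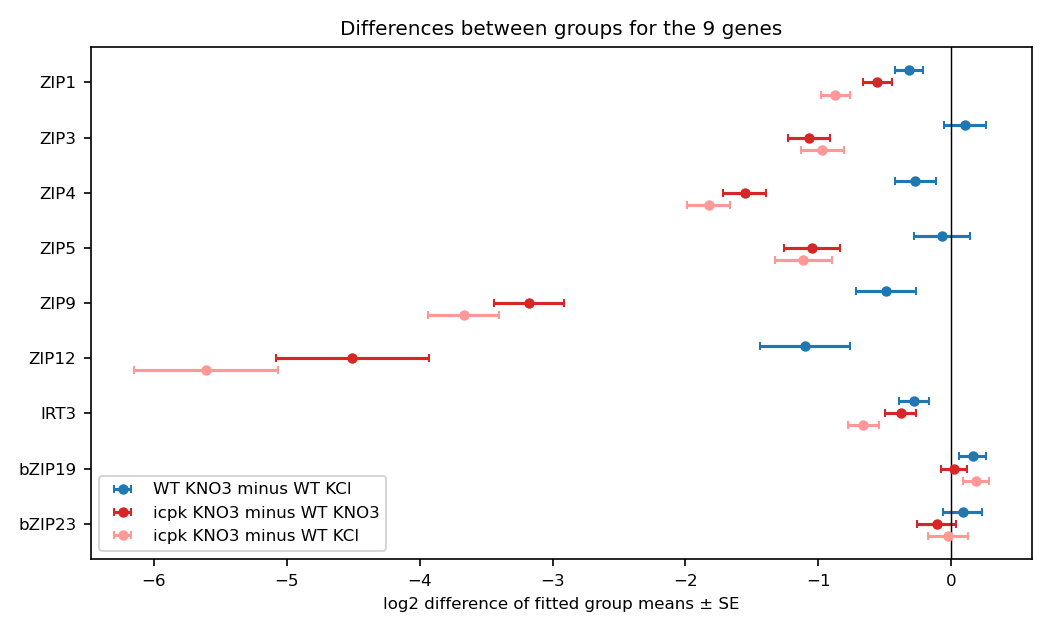
Log2 differences of fitted group means (x axis, ± SE) for the 9 genes in the 3 comparisons. The nitrate values in blue lie between -1.10 and 0.16; the icpk values of the transporters lie below 0 in both reds, down to -4.51 and -5.61 for ZIP12, and those of bZIP19 and bZIP23 lie near 0.

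None of the other ZIP family genes that could be tested was called lower in icpk. The transporters above were taken from this family for their lower level in icpk. The lack of lower calls among the remaining genes, and their median, thus follow largely from that choice, and nothing is read from them. Of 10 other family genes 6 had enough counts to test, and in icpk against wild type with KNO3 2 were higher and 0 lower, where 11.3% of tested genes were called higher and 11.4% lower (edgeR, adjusted p below 0.05). At an unadjusted p below 0.05 there were also 2 higher and 0 lower, and DESeq2 called 2 higher and 0 lower. Their median log2 difference was 0.08. IRT1, the main iron importer of the root epidermis, which also carries zinc, had 1, 15 and 2 counts in wild type with KNO3, 227, 535 and 165 counts in icpk, and 45, 40 and 16 counts in wild type with KCl. IRT1 was thus highest in icpk (19.81 ± 8.441 CPM), lower with KCl (2.597 ± 0.3783 CPM) and lowest in wild type with KNO3 (0.3524 ± 0.4415 CPM), with no overlap between groups. Its log2 difference between icpk and wild type with KNO3 was 5.71 ± 0.54 (adjusted p 0.000304 by edgeR), and against wild type with KCl it was 2.98 ± 0.43 (adjusted p 0.00232 by edgeR).

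ZIP2, a transporter placed in the root stele, was 0.9386 ± 0.4041 CPM in wild type with KNO3 and 2.349 ± 0.538 CPM in icpk (log2 difference 1.32 ± 0.32, adjusted p 0.0163 by edgeR). The ZIP2 call was lost without wild type KNO3 replicate 1, wild type KNO3 replicate 3 or icpk replicate 2 (adjusted p 0.0618, 0.0529 and 0.0534 by edgeR), and IRT1 then stood as the 1 call. In the nitrate contrast IRT1 was lower with KNO3, at -2.74 ± 0.64 (adjusted p 0.0317 by edgeR), as the 1 called of the 6. That IRT1 call was lost in 5 of the 6 fits that each left out 1 wild type library, with adjusted p up to 0.11 by edgeR. Against wild type with KCl, IRT1 was again the 1 called, higher in icpk, where 3.15% of tested genes were called higher and 3.84% lower. ZIP10, whose promoter holds a ZDRE core at chr1:11177471-11177478 on the minus strand, 116 bases before its start (taattagtaaTGTCGACActtactttga), had 0 counts in all 9 libraries.

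Genes of zinc chelation and movement within the plant were taken from a list of 24, of which 23 were tested. In icpk against wild type with KNO3, 2 were higher and 8 lower, beside 11.3% and 11.4% of all tested genes, with a median log2 difference of -0.22. Besides those described below, FRD3, NAS4, NAS3, PCS1 and YSL1 were lower, by log2 differences of -0.91, -0.93, -0.78, -0.84 and -0.50, and HMA4 was higher, at 0.44. The list was drawn up with earlier results of these data known and is no independent evidence of a direction. With the replicate number as a block the counts were 4 higher and 8 lower, the additional calls being HMA3 (adjusted p 0.0448, against 0.0503 without the block, by edgeR) and NAS1 (adjusted p 0.0488, against 0.104, by edgeR). Without wild type KNO3 replicate 2 there were 4 higher and 9 lower, and with all replicate 3 libraries left out there were 1 higher and 7 lower, the calls of HMA4 and PCS1 being lost (adjusted p 0.102 and 0.0848 by edgeR).

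MTP2, a zinc transporter of the endoplasmic reticulum, had 150, 121 and 162 counts in wild type with KNO3 and 8, 7 and 2 counts in icpk. The pooled ratio was 4.21% (95% exact interval 2.43% to 6.81%, which covers counting error only). The log2 difference was -4.54 ± 0.36 (adjusted p 0.000149 by edgeR). The pooled ratio of ZIP12 given above, 4.15%, rests on 5 icpk counts. ZIP12 was chosen on this difference, so no likeness to MTP2 is read from it. With KCl, wild type had 11.18, 9.548 and 14.66 CPM of MTP2, overlapping its 9.689, 6.943 and 10.68 CPM with KNO3.

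NAS2, which makes the metal chelator nicotianamine, was 92.89, 95.31 and 98.13 CPM in wild type with KNO3 and 33.2, 42.69 and 30.44 CPM in icpk. The groups stood well apart (log2 difference -1.43 ± 0.12, adjusted p 0.000216 by edgeR). NAS2 was the only gene of the list of 24 with a ZDRE core in the searched window, at chr5:22712364-22712371 on the minus strand, in an exon of its 5′ UTR (ctcttcatagTGTCGACAtggcttgcga). HMA2, a pump that loads zinc into the xylem, was 80.35, 78.09 and 73.86 CPM in wild type with KNO3 and 29.2, 23.01 and 34.18 CPM in icpk (log2 difference -1.43 ± 0.15, adjusted p 0.000463 by edgeR). OPT3, a phloem transporter of iron and copper, moved the other way, from 68.34, 77.35 and 72.14 CPM to 168.2, 141.4 and 208.9 CPM (log2 difference 1.25 ± 0.13, adjusted p 0.000561 by edgeR).

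In the nitrate contrast, 4 of these 23 genes were higher and 1 lower, beside 3.56% and 2.39% of all tested genes. HMA2 rose from 17.35, 14.56 and 19.98 CPM with KCl to its KNO3 level above (log2 difference 2.18 ± 0.15, adjusted p 9.93e-06 by edgeR), so that its icpk level lay between the wild type groups. YSL1, a transporter of metal-nicotianamine complexes, and NAS2 were higher with KNO3 by 0.52 ± 0.11 and 0.58 ± 0.12 on the log2 scale (adjusted p 0.0169 and 0.0195 by edgeR). MTP12, a partner of MTP5 in zinc transport into the Golgi, was higher by 0.51 ± 0.12 (adjusted p 0.0301 by edgeR). OPT3 was the 1 lower gene, at -0.53 ± 0.13 (adjusted p 0.0408 by edgeR). The calls of YSL1, NAS2, MTP12 and OPT3 were each lost in 4 or 5 of the 6 fits that left out 1 wild type library. The counts with 1 wild type library left out were 1 to 5 higher and 0 or 1 lower.

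Against wild type with KCl, 3 of the 23 were higher in icpk and 4 lower, beside 3.15% and 3.84% of all tested genes, with a median log2 difference of 0.01. MTP2 was at -4.89 ± 0.36 and NAS2 at -0.85 ± 0.12 (adjusted p 2.39e-05 and 0.00243 by edgeR). FRD3, a citrate exporter, was at -0.72 ± 0.14, and OPT3 at 0.72 ± 0.13 (adjusted p 0.0112 and 0.00931 by edgeR). The other calls were NAS4 lower and NAS1 and HMA2 higher. The NAS4 call was lost without wild type KCl replicate 3 or icpk replicate 2 (adjusted p 0.0545 and 0.0654 by edgeR), and that of NAS1 without wild type KCl replicate 2 or icpk replicate 2 (adjusted p 0.0736 and 0.0528 by edgeR). The number higher was 1 without wild type KCl replicate 2. HMA2, lower in icpk than in wild type with KNO3, was higher than in wild type with KCl (log2 difference 0.75 ± 0.15, adjusted p 0.0148 by edgeR), a call lost without wild type KCl replicate 2 or icpk replicate 3 (adjusted p 0.0749 and 0.0507 by edgeR).

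**Figure D4:**
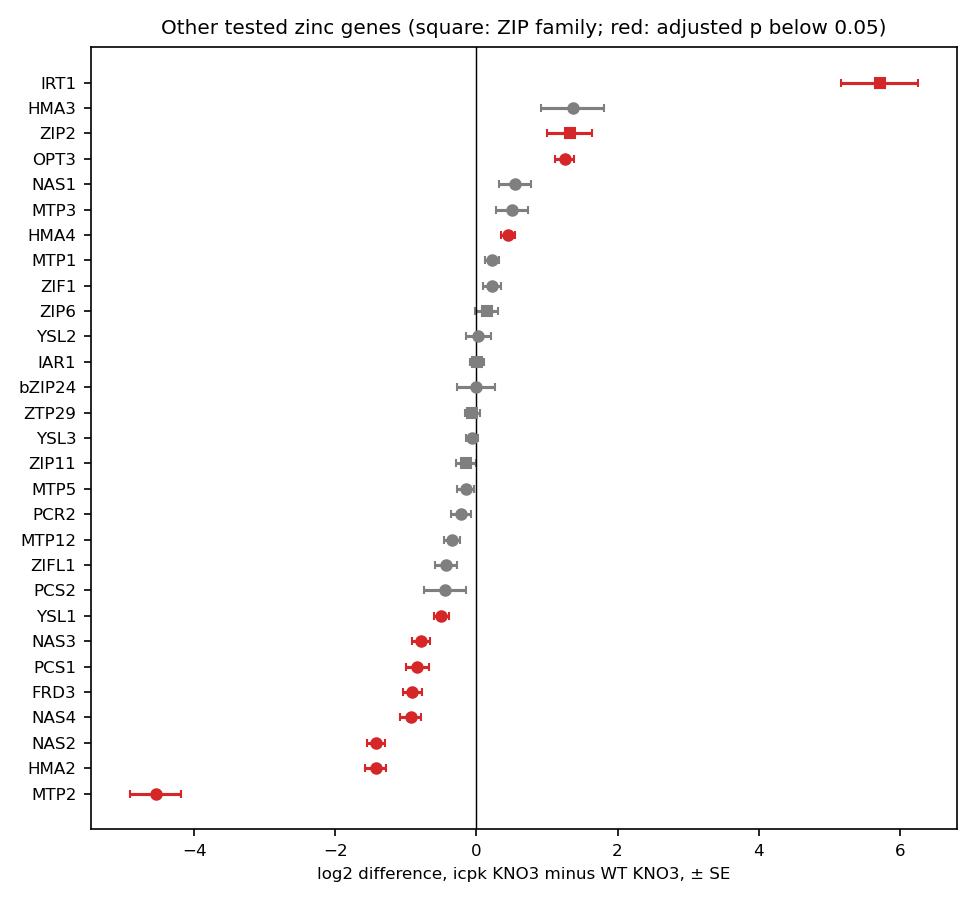
Log2 difference between icpk and wild type with KNO3 (x axis, ± SE) for the tested genes of the ZIP family (squares) and of zinc distribution (circles) that are not among the 9; red marks an adjusted p below 0.05. MTP2 at -4.54, HMA2 and NAS2 at -1.43 lie at the bottom, and IRT1 at 5.71 lies at the top.

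Genes of iron deficiency are given because IRT1 is one of their usual companions. Of 7 on the list 4 were tested, and 3 were higher in icpk than in wild type with KNO3 and 0 lower (beside 11.3% and 11.4% of all tested genes; also 3 and 0 at an unadjusted p below 0.05 and by DESeq2); with no filter on low counts 5 were higher. BTS, an E3 ligase that restrains the iron response, was 72.09, 72.76 and 79.13 CPM in wild type and 112.6, 93.83 and 104.1 CPM in icpk (log2 difference 0.47 ± 0.09, adjusted p 0.00575 by edgeR). FRO2, the root ferric reductase, was 2.622 ± 0.65 and 5.978 ± 1.43 CPM (log2 difference 1.19 ± 0.25, adjusted p 0.00898 by edgeR). IMA1, a small peptide gene of iron signalling, had a log2 difference of 2.38 ± 0.57 (adjusted p 0.0154 by edgeR), on 5, 9 and 1 counts in wild type and 28, 25 and 19 in icpk. The IMA1 call was lost without wild type KNO3 replicate 1 (adjusted p 0.0537 by edgeR). FIT, the factor upstream of IRT1 and FRO2, was 3.149 ± 0.9952 and 3.326 ± 1.213 CPM and overlapped. For nitrate 0 of the 4 were called by edgeR, beside 3.56% of all tested genes higher and 2.39% lower, with 1 (IMA1, lower with KNO3) at an unadjusted p below 0.05, and against wild type with KCl FRO2 and BTS were higher in icpk, beside 3.15% of all tested genes (adjusted p 0.0294 and 0.00539 by edgeR). The FRO2 call against KCl was lost without wild type KCl replicate 1 or 2 or icpk replicate 1 or 2 (adjusted p 0.066 to 0.133 by edgeR).

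The ZDRE core is also found outside the zinc genes. Of 350 tested genes with the core that are not among the 9, 40 were lower in icpk than in wild type with KNO3 (11.4%) and 33 higher (9.43%). Over all tested genes the shares were 11.4% and 11.3%. Among the transporters with no exact core in the window, the log2 difference was -3.18 for ZIP9 and -0.56 for ZIP1. Among those with a core it was -4.51 for ZIP12, -1.55 for ZIP4, -1.07 for ZIP3, -1.05 for ZIP5 and -0.38 for IRT3. These differences chose the genes, and a link between core and difference was not tested.

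Because ZIP genes are expressed mainly in roots or in both organs, organ markers were followed in the same libraries. The summed level of 22 root markers was 204.8, 166.3 and 216.5 CPM in wild type with KCl, 215.1, 213.2 and 323.4 CPM with KNO3, and 132.9, 203.3 and 197.5 CPM in icpk. The icpk sums were below every wild type KNO3 sum and overlapped the KCl sums. In icpk against wild type with KNO3, 5 of 21 tested root markers were lower and 0 higher (median log2 difference -0.51), beside 11.4% and 11.3% of all tested genes. These were EXPA7, PRP3 and LRX1 of root hairs and PLT1 and PLT2 of the root meristem, and their number was 2 without wild type KNO3 replicate 1 and 3 without icpk replicate 1 or 3. Of 17 shoot markers 3 (CAB3, RBCS1B and PSBP1) were higher and 0 lower (median 0.53), beside 11.3% of all tested genes higher. DESeq2 called 12 higher, limma voom 8 and the fit with the replicate block 2. The count was 1 without wild type KNO3 replicate 1 or 3 or icpk replicate 1 or 3, 5 without wild type KNO3 replicate 2 and 10 without icpk replicate 2. CAB3 and RBCS1B have near-identical copies that can share reads. With all replicate 3 libraries left out, 0 markers of either list were called. The summed level of the 17 shoot markers was 56220 to 68220 CPM with KCl, 35680 to 50770 CPM with KNO3 and 49510 to 75510 CPM in icpk, and no marker of either list was at 0 in any group. Fewer root cells and less RNA per root cell cannot be told apart in whole seedlings, and the part of organ proportions in the transporter values was not tested. Against wild type with KCl, 0 markers of either list were called by edgeR or DESeq2 (median -0.12 for root and 0.06 for shoot), beside 3.15% of all tested genes higher and 3.84% lower, with 1 root marker higher and 3 lower and 0 shoot markers at an unadjusted p below 0.05. Without icpk replicate 2, edgeR called 1 root marker higher and 2 lower there, and with the replicate block 1 lower. In that comparison the 7 transporters had a median of -1.11. That comparison uses the icpk libraries that chose the genes and differs in salt as well. Nothing is read from this median about organ proportions. For nitrate in wild type, the root marker SKOR was higher and the shoot marker CAB3 lower (median 0.24 for root and -0.50 for shoot), while DESeq2 called 4 root markers higher and 6 shoot markers lower. With 1 library left out the edgeR counts were 0 to 2 root markers higher, 0 in 6 of the 9 fits, and 0 to 3 shoot markers lower, 0 in 6 of the 9.

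**Figure D5:**
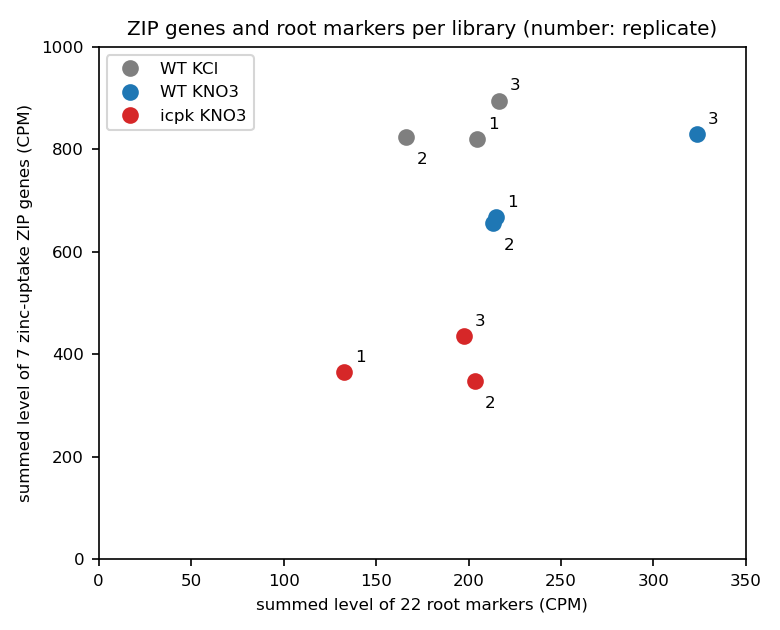
Summed level of the 7 transporters (y axis, CPM) against the summed level of 22 root markers (x axis, CPM) in each of the 9 libraries, numbered by replicate. The icpk libraries lie at 348.6 to 435.3 CPM on the y axis, below all wild type libraries. Their root sums overlap those of wild type with KCl and lie below every sum of wild type with KNO3. The part of organ proportions was not tested.

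Within groups, 1 replicate number tended to hold the highest transporter levels. Replicate 3 was the highest of its group for 6 of 7 transporters in wild type with KCl, 6 of 7 in wild type with KNO3 and 5 of 7 in icpk. Over all tested genes, replicate 3 was highest for 33%, 38.3% and 37.3%. The replicate 3 libraries carry later record numbers than the others, and whether they were made at another time was not tested. Without replicate 3 of every group, the icpk differences of the transporters from wild type with KNO3 were -0.56 for ZIP1, -0.89 for ZIP3, -1.52 for ZIP4, -1.09 for ZIP5, -3.45 for ZIP9, -4.85 for ZIP12 and -0.42 for IRT3 on the log2 scale.

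The genes most like the mean profile of the 7 transporters over the 9 libraries were ranked by the root mean square difference of centred log2 CPM. By this measure the 7 transporters lay at differing distances from their mean. The measure is not scaled, so a gene with the same pattern but larger or smaller differences also lies further off. The mean holds the 7 transporters themselves. ZIP4 was at 0.123 with 0 non-members closer, ZIP5 at 0.39 with 47, ZIP3 at 0.481 with 182, ZIP1 at 0.527 with 307, IRT3 at 0.612 with 713, ZIP9 at 0.819 with 4928 and ZIP12 at 1.23 with 19300. The 5 closest non-members were AT5G23840 (0.229), AT4G12545 (0.232), AT4G33120 (0.245), AT3G59710 (0.245) and AT4G24340 (0.256). AT5G23840 was 27.04 ± 5.861 CPM in wild type with KCl, 24.15 ± 1.905 CPM with KNO3 and 5.666 ± 0.5166 CPM in icpk. AT4G12545 was 24 ± 4.086, 15.45 ± 3.652 and 6.043 ± 1.74 CPM. The likeness holds the same difference that chose the transporters and is a description.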

How the data were processed

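RNA of 9 seedling libraries was made into unstranded TruSeq libraries and sequenced for 50 cycles on 2 lanes, per the labels' protocols. TopHat, HTSeq and DESeq2 with TAIR10 are named in the submitters' processing notes; their versions are not given in sources used here. The deposited values are whole-number read counts per gene and library. The 5 summary rows (26.7% to 84.3% of records, mostly alignments that were not unique) were left out. The authors' deposited comparison tables hold a base mean (a signal of normalised counts), log2 fold changes, a test statistic (score) and p-values, and only the log2 value and adjusted p of ZIP12 in them are printed.

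Counts were fitted in edgeR 4.0.16 (R 4.3.3) with TMM scaling, a filterByExpr minimum of 10 counts, 1 quasi-likelihood model over the 9 libraries and Benjamini-Hochberg adjustment over 20288 genes at 0.05. DESeq2 1.42.0, limma 3.58.1 voom, RLE factors, no filter, the 6 libraries of a comparison, leaving out libraries and a replicate block were alternatives. The edgeR fit was tested on simulated counts. Promoters were read from TAIR10.1 by gene ID. Because the library kit does not mark strand, overlapping antisense transcripts cannot be told apart.

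The members and all gene lists were chosen with earlier results of these data known. The genes named are the 9, the 3 kinases and, from each list and comparison, up to 4 called genes by smallest p, with the 5 most alike. Genes named outside this rule (ZIP10, FIT, organ markers, and genes given beyond 4 of a list) were chosen after their values were seen. Same-numbered libraries of icpk and wild type with KNO3 deviated together (correlations 0.13 to 0.37, against -0.26 to 0.1 for other numbers), a pairing read from the data alone. In the nitrate contrast (-0.031 to 0.34) and icpk against KCl (-0.28 to 0.13) they were not taken as paired. The main fit did not use the pairing, and p-values are from fits without it unless the replicate block is named.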

Additional observations from a re-analysis of the deposited data

How the results depend on the processing

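The icpk differences of the 9 genes moved by less than the spread between replicates in all 144 alternative values against wild type with KNO3 and all 144 against KCl. Those of the 7 transporters stayed below 0. Their choice and the lack of overlap with wild type made that likely beforehand, and nothing is read from it. For nitrate, fits leaving out 1 library gave ZIP3 values of -0.043 to 0.26, the sign turning when wild type KCl replicate 2 (-0.043) or KNO3 replicate 3 (-0.016) was absent. The same fits gave ZIP5 values of -0.27 to 0.10, turned when wild type KNO3 replicate 2 was absent (0.10). Depth limits ZIP12 in icpk. The nitrate contrast called 1207 genes (722 higher, 485 lower), DESeq2 1748 (939 and 809), and the fits leaving out 1 library 598 to 2077, with 714 and 617 without wild type KCl replicate 1 or 2 and 598, 2077 and 710 without wild type KNO3 replicate 1, 2 or 3. The balance moved as well: 846 higher and 1231 lower when wild type KNO3 replicate 2 was absent, and 473 and 125 when replicate 1 was. Icpk against wild type with KNO3 called 4599 genes, and 2461 to 4403 with 1 library left out (2461 and 2844 without wild type KNO3 replicate 1 or 3, and 3030 without icpk replicate 3). Icpk against KCl called 1418, and 689 to 1512 (689 and 731 without wild type KCl replicate 2 or 3, and 850 without icpk replicate 3). With all replicate 3 libraries left out, the counts were 677, 1408 and 476 in that order, from fewer libraries.

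With the replicate number as a block, the counts were 1243 for nitrate, 4770 for icpk against wild type with KNO3 and 1344 for icpk against KCl; ZIP1 passed for nitrate (-0.33, adjusted p 0.0427 by edgeR) and OPT3 did not (adjusted p 0.0523 by edgeR).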
